A study of Mus musculus with 8 samples.

Results

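Potassium channel subunits were taken as every protein-coding mouse gene whose symbol starts with Kcn, which gave 94 genes among the 49315 in the count tables. Of these, 45 had at least 10 counts in at least 4 libraries and are reported here, and the other 49 are accounted for by their counts. The libraries were made from cardiomyocytes of C57/Bl6 mouse embryos at day 12.5 kept in culture, with 4 libraries from medium with 10 µM simvastatin and 4 from control medium, and embryos of both sexes pooled. Simvastatin is an inhibitor of HMG-CoA reductase, the rate-limiting enzyme of the mevalonate pathway, and the comparison asks how subunit RNA differs with the drug. No source used here gives the time in the drug. The labels describe both isolated cells in culture and dissected hearts, and nothing in them says that the libraries came from separate cultures. The p-values therefore cover the spread between these 8 libraries, which may be technical.

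A potassium channel is built around a pore that lets potassium ions leave or enter the cell, and the gene families differ in what opens it. Voltage-gated Kv, EAG/ERG and KCNQ channels open on depolarization and end the cardiac action potential, inward rectifiers (Kcnj) hold the resting potential and respond to G proteins or to ATP, tandem-pore-domain channels (Kcnk) carry background current, and calcium- or sodium-activated channels (Kcnm, Kcnn, Kcnt) follow ion levels inside the cell. Accessory subunits (Kcne, Kcnab, Kcnip) form no pore themselves and change how the pore-forming subunits open or reach the membrane.

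Library totals ran from 30474586 to 34993255 counts with simvastatin and from 31457872 to 35215640 counts in controls. The 6 cardiomyocyte markers (Tnnt2, Myh6, Actn2, Ttn, Ryr2, Nkx2-5) summed to between 5038 and 6458 RPKM with simvastatin and between 4755 and 6726 RPKM in controls, where RPKM is reads per kilobase of exon and per mega-read of the scaled library total. Nearly all of these sums was Myh6, Tnnt2 and Actn2. Over all 8 libraries none of the 6 passed the test by edgeR's quasi-likelihood test, at an unadjusted p under 0.05, by DESeq2 or by limma-voom (0 in each). Nkx2-5 differed in direction between the 2 sets of libraries described below. Its log2 fold change was 1.64 in set 1 (adjusted p = 0.123 by edgeR) and -1.73 in set 2 (adjusted p = 0.000918 by edgeR). The 7 smooth muscle and pericyte markers summed to between 227.8 and 343.8 RPKM with simvastatin and between 1351 and 1954 RPKM in controls, with 5 of 7 lower past the test and 1 higher. Most of that sum came from 1 gene, which was among the 5 lower. Conduction system markers summed to 132.1 to 164.5 RPKM with simvastatin and 85.7 to 105.7 RPKM in controls. Most of that sum was Gja5, at 135.7 RPKM with simvastatin and 88.3 RPKM in controls. Of the 6 conduction markers 2 were higher past the test and 0 lower, and the rest did not pass, with Tbx3 at a log2 fold change of -0.14. Summed neural markers were at 38.2 to 48.5 RPKM with simvastatin and 16.4 to 25.3 RPKM in controls. Most of that sum was Tubb3, and 1 of 4 tested neural markers was higher past the test. Of the other marker lists, edgeR called 2 of 6 fibroblast, 2 of 6 endothelial and 2 of 4 tested macrophage genes as lower, 3 of 6 epicardial genes as lower and 1 as higher, and 1 of 3 tested erythroid genes as higher. No marker was at 0 in all 8 libraries. The part of other cell types in the subunit results was not tested, and in such bulk samples fewer cells of a type and less RNA per cell cannot be told apart.

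Simvastatin libraries held less RNA of several accessory subunits and of scattered low-level pore subunits, and more RNA of the cardiac pore genes Kcnh2 and Kcnj5. The Kcnh2 call was lost in 5 of 18 alternative fits of these data, and the Kcnj5 call in 0 of 18. Of the 45 reported genes, 12 fell and 5 rose at an adjusted p under 0.05 by edgeR's quasi-likelihood test, and 28 did not pass. Over all 16126 genes tested the same rule called 9.61% as lower and 7.79% as higher, so that the share of subunit genes that rose lay near that of all genes and the share that fell lay above it. Changes of at least 2-fold were called for 11 subunit genes that fell and 3 that rose, beside 4.99% and 2.92% of all genes. The groups did not overlap for 12 genes with lower values and 8 with higher values under simvastatin, where 12.1% and 11.0% of all genes tested showed this. Kcnh1 enters each of these counts of higher genes, and it met the minimum for reporting through the simvastatin libraries alone. The median log2 fold change was -0.03 over the 45 genes and 0.01 over all genes tested.

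**Figure D1:**
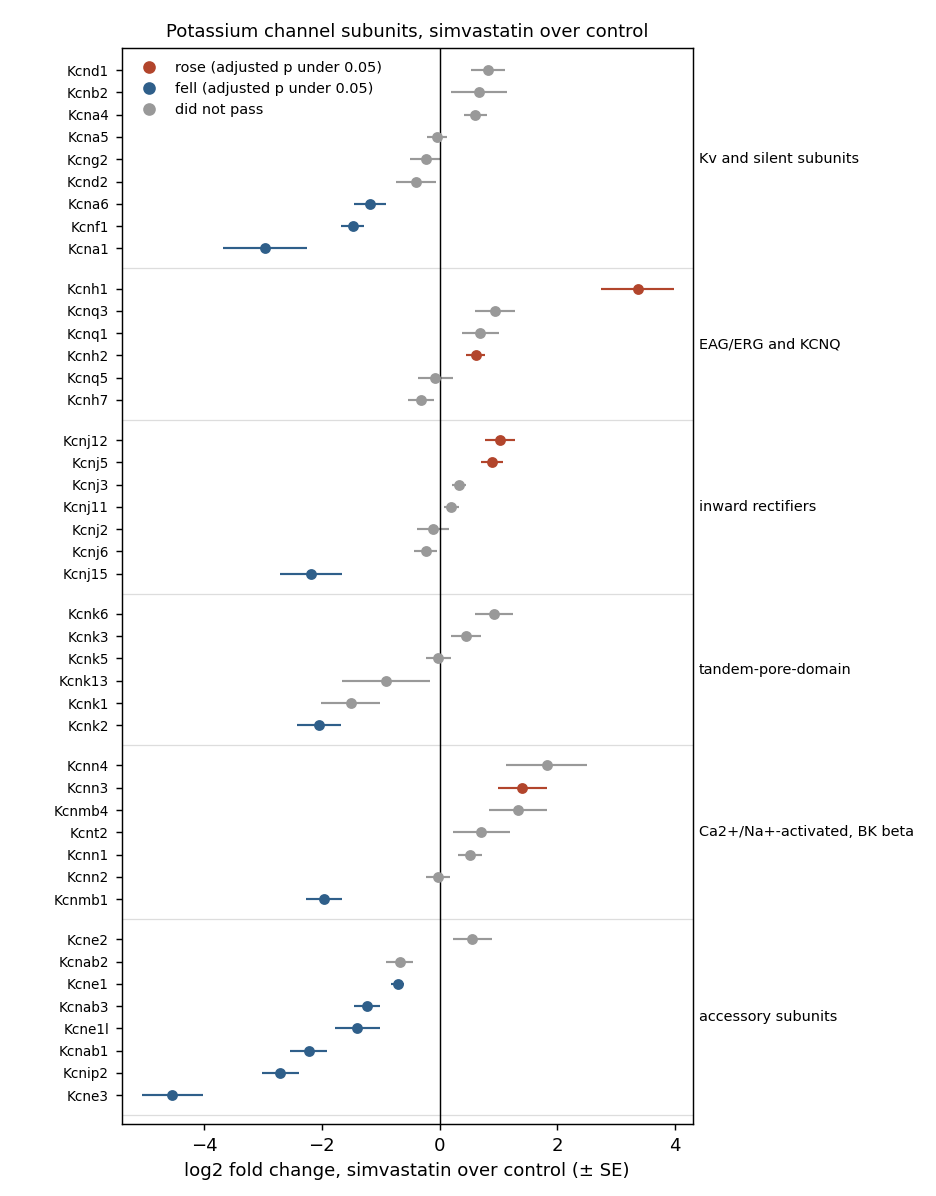
Log2 fold change of reported subunit genes, simvastatin over control, with its standard error (horizontal bar), grouped by channel class from top to bottom. Red points rose and blue points fell at an adjusted p under 0.05, and 6 of the 8 accessory subunits at the bottom are blue.

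Levels compared per length were dominated by a few cardiac genes. Kcnh2, Kcne1, Kcnj5 and Kcnq1 together made up 74.7 ± 2.78% of the summed RPKM of all 94 genes with simvastatin and 65.9 ± 3.21% in controls (SD, n = 4 each). Kcnh2 alone held 31.8 ± 3.02% with simvastatin and 23.7 ± 2.80% in controls, while Kcne1 held 11.9 ± 1.29% with simvastatin and 22.4 ± 2.48% in controls. In control libraries the order of mean RPKM was Kcnh2, Kcne1, Kcnj5, Kcnq1, Kcnj2, Kcnj11, Kcna4, Kcng2, Kcnj3 and Kcne1l, at 40.1, 37.4, 21.3, 12.3, 6.21, 4.92, 4.86, 4.45, 4.43 and 3.93 RPKM. Control libraries of Kcnh2 and Kcne1 overlapped, as did those of each neighbouring pair from Kcnq1 to Kcne1l, while Kcnj5 lay apart from both of its neighbours. At least 1 RPKM on average was reached by 14 of the reported genes with simvastatin and 18 in controls.

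By class, summed RPKM of the EAG/ERG and KCNQ class was 82.5 ± 16.8 with simvastatin and 53.5 ± 11.3 in controls, and that of inward rectifiers was 58.7 ± 6.93 with simvastatin and 38.9 ± 8.18 in controls. In the EAG/ERG and KCNQ class the groups overlapped, with simvastatin library 4 at 62.3 RPKM and control library 4 at 63.0 RPKM. Nearly all of that sum was Kcnh2 and Kcnq1, and Kcnq1 did not pass the test. On average, most of the inward rectifier sum was Kcnj5, at 39.7 RPKM with simvastatin and 21.3 RPKM in controls. The accessory class summed to 28.8, 24.4, 30.9 and 27.6 RPKM in simvastatin libraries 1 to 4, against 55.4, 51.9, 53.9 and 48.1 RPKM in control libraries 1 to 4. Every simvastatin library lay below every control library in this class, and the sums carry no test. Most of the accessory sum was Kcne1, at 22.8 RPKM with simvastatin and 37.4 RPKM in controls. Kv and silent subunits summed to 16.2 ± 1.55 RPKM with simvastatin and 16.4 ± 1.29 RPKM in controls, and tandem-pore-domain genes to 3.61 ± 0.758 RPKM with simvastatin and 3.36 ± 0.834 RPKM in controls. The calcium- and sodium-activated class, with the BK beta subunits, summed to 3.04 ± 0.583 RPKM with simvastatin and 3.66 ± 0.323 RPKM in controls.

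**Figure D2:**
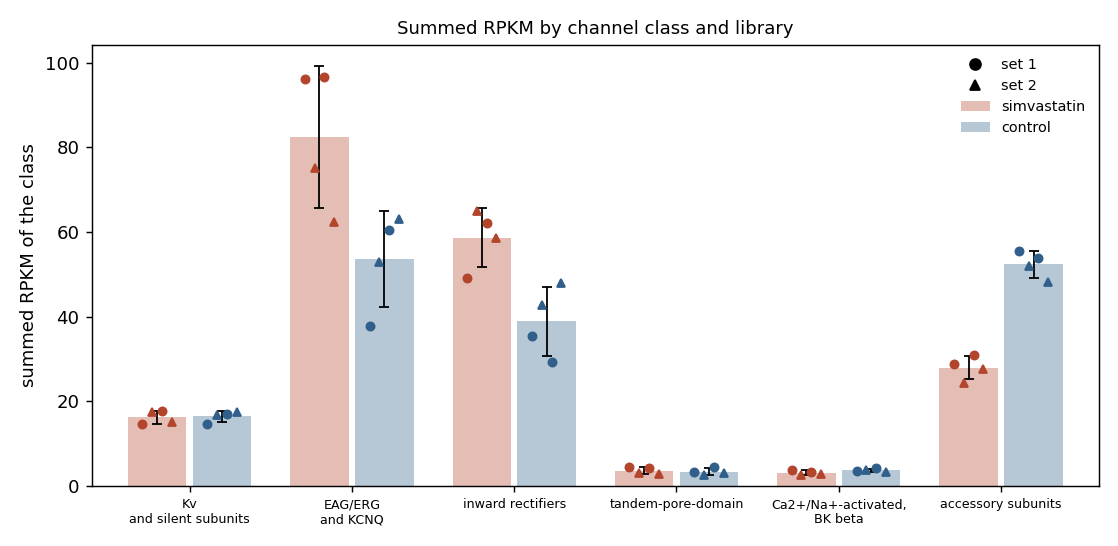
Summed RPKM of each channel class by library, with simvastatin (red) left of control (blue); bars are means of 4 libraries, error bars are SD, circles are set 1 and triangles set 2 as named in the count columns. Accessory subunits averaged 27.9 RPKM with simvastatin and 52.3 RPKM in controls without overlap.

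The promoter of Kcnk2, the stretch-gated and lipid-gated channel TREK-1, is shown for a fallen gene whose window holds a TEAD motif, the DNA element of the factors that bind the coactivator YAP. RefSeq promoter windows of 250 bases before to 50 after the start were found for 31 of the 45 reported genes. The motif GGAATG, searched on both strands, was in 7 of these 31 windows, in 2 of 9 for genes that fell and in 0 of 5 for genes that rose, beside 14.8% of the windows of all genes tested. The 250 bases before the start of Kcnk2 (GRCm38.p6, chr1:189402274-189402523, minus strand) carry it in reverse complement, in capitals, with its first base 89 bases before the start.
Kcnk2 promoter: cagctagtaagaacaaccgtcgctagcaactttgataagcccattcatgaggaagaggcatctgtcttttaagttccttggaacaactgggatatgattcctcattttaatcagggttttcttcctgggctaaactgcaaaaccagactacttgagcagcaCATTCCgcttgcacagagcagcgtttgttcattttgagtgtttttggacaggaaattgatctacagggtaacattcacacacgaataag

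Other motifs gave few matches in the same windows. The GATA motif AGATAA was in 1 of 31 windows (Kcnj15) and in 8.1% of those of all genes tested, and the serum response CArG box in 0 of 31 and 1.7%. The sterol response element was in 0 of 31 windows and in 0.1% of those of all genes tested. A match is a description of letters and not of a bound site.

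Among accessory subunits, 6 of the 8 reported genes fell and none rose by edgeR, beside 9.61% and 7.79% of all genes tested. The class median log2 fold change was -1.31. At an unadjusted p under 0.05 the counts were 7 lower and 0 higher, which were also the counts of DESeq2, and limma-voom gave 6 lower and 0 higher. Over all genes tested, an unadjusted p under 0.05 called 15.4% as lower and 14.2% as higher, DESeq2 11.4% and 10.5%, and limma-voom 9.52% and 7.84%. The fallen genes belong to the single-pass Kcne subunits, the cytoplasmic Kcnab subunits and the calcium-binding Kcnip subunits, of which only Kcnip2 was reported. Kcnrg, also placed in this class, missed the minimum.

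Kcne3 (chromosome 7, 100176502 to 100184869, GRCm38 as are all positions here) encodes a single-pass partner that holds KCNQ1 channels open in epithelia. Its values were 0.124, 0.210, 0.0544 and 0.222 RPKM in simvastatin libraries 1 to 4, against 5.33, 3.88, 3.97 and 1.24 RPKM in control libraries 1 to 4. All simvastatin libraries lay far below the lowest control, which was control 4, and the log2 fold change was -4.54 ± 0.51 (SE; 23.2-fold lower; adjusted p = 0.000226 by edgeR). Counts behind these values were 3 to 13 with simvastatin and 68 to 333 in controls.

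Kcnip2 (chromosome 19, 45791839 to 45816061) encodes KChIP2, the calcium-binding partner that Kv4 channels need for the fast transient outward current of the rodent ventricle. It was at 0.172, 0.166, 0.343 and 0.303 RPKM in simvastatin libraries 1 to 4, against 0.983, 1.80, 1.62 and 2.01 RPKM in control libraries 1 to 4. The groups stood well apart, with a log2 fold change of -2.70 ± 0.32 (6.51-fold lower, adjusted p = 0.000279 by edgeR). Its pore-forming partner Kcnd2 did not pass, with 0.441 ± 0.0420 RPKM under simvastatin and 0.583 ± 0.310 RPKM in controls (adjusted p = 0.503). The ratio of Kcnip2 to Kcnd2 RPKM was 0.352, 0.366, 0.884 and 0.698 with simvastatin, against 2.40, 2.74, 5.73 and 2.04 in controls, without overlap and without a test.

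The cytoplasmic beta subunits of Shaker-type Kv1 channels are encoded by Kcnab1, Kcnab2 and Kcnab3. Kcnab1 (chromosome 3, 65109384 to 65378223) had 0.323, 0.878, 0.417 and 0.720 RPKM in simvastatin libraries 1 to 4, against 3.71, 2.15, 2.76 and 2.29 RPKM in control libraries 1 to 4. The highest simvastatin library was below the lowest control, and the gene fell by 2.22 ± 0.31 on the log2 scale (adjusted p = 0.000817 by edgeR). Kcnab3 (chromosome 11, 69326258 to 69333042) had 0.506, 0.513, 0.450 and 0.425 RPKM with simvastatin, against 0.805, 1.13, 1.17 and 1.37 RPKM in controls. Its groups did not overlap either, and it fell by 1.23 ± 0.22 on the log2 scale (adjusted p = 0.00349 by edgeR). Kcnab2 was at 0.316 ± 0.0275 RPKM with simvastatin and 0.506 ± 0.120 RPKM in controls and did not pass (adjusted p = 0.0685 by edgeR).

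Kcne1 (chromosome 16, 92346001 to 92359468) encodes minK, the partner with which KCNQ1 forms the slow delayed rectifier. It was the most abundant accessory subunit, with 25.6, 18.9, 25.8 and 21.1 RPKM in simvastatin libraries 1 to 4, against 38.2, 37.5, 38.4 and 35.6 RPKM in control libraries 1 to 4. The change was modest in size but free of overlap, at a log2 fold change of -0.71 ± 0.12 (adjusted p = 0.0018 by edgeR). Kcne2, 47.9 kb away on the same chromosome and known as a partner of KCNQ1 in the stomach, had 1.40 ± 0.309 RPKM with simvastatin and 0.957 ± 0.407 RPKM in controls and did not pass (log2 fold change 0.55 ± 0.33, adjusted p = 0.306).

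Kcne1l (chromosome X, 142304752 to 142306294), also called KCNE5, encodes a partner that suppresses KCNQ1 current. Its level was 0.551, 1.75, 1.003 and 2.67 RPKM in simvastatin libraries 1 to 4, against 4.59, 4.03, 3.88 and 3.23 RPKM in control libraries 1 to 4. Simvastatin library 4 came near the lowest control, and the log2 fold change was -1.40 ± 0.39 (adjusted p = 0.0317 by edgeR). This call was lost when any of 5 libraries was left out (controls 1, 2 and 3, simvastatin 2 and 3; adjusted p 0.00743 to 0.0857 over the 8 libraries left out in turn).

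**Figure D3:**
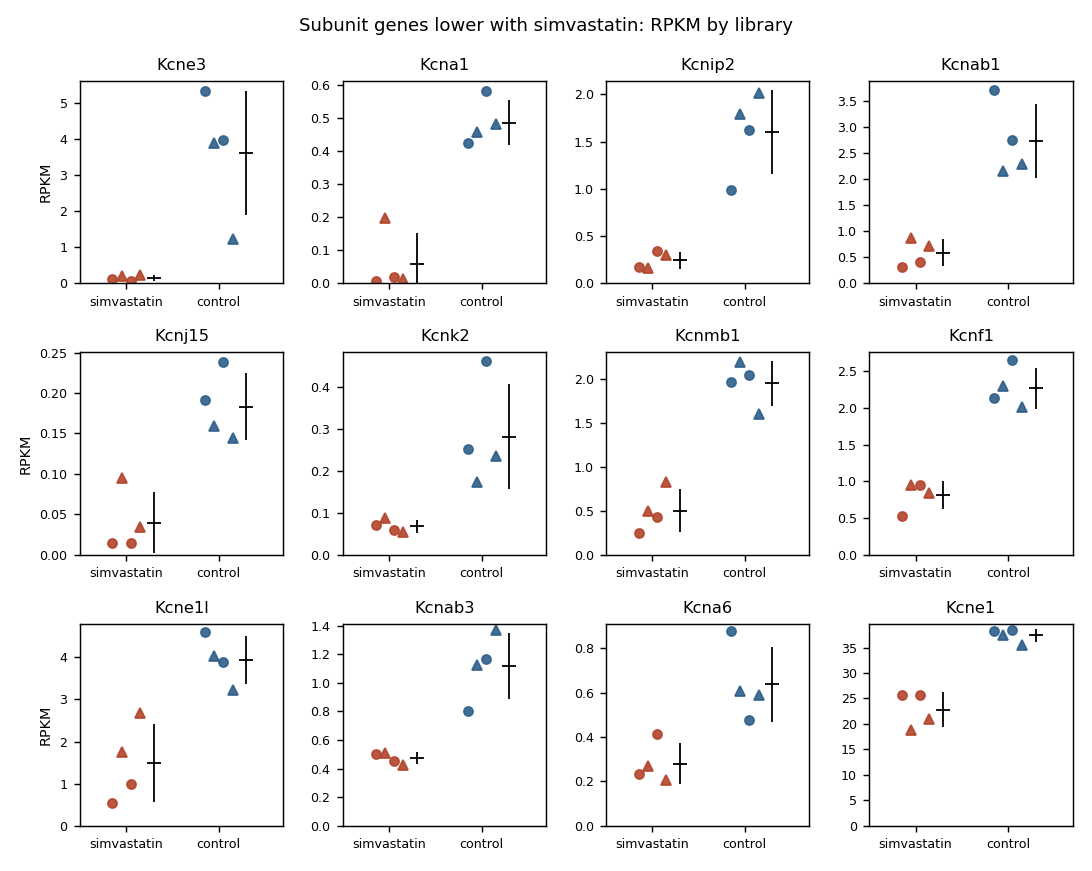
RPKM by library of the 12 subunit genes that fell, each panel with simvastatin (red) left of control (blue); circles are set 1, triangles set 2, and the dash with its vertical bar is the mean ± SD of 4 libraries. No panel shows a simvastatin library inside the control range, and Kcne3, at the top left, was at 0.222 RPKM or less with simvastatin.

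In the EAG/ERG and KCNQ class 2 of 7 reported genes rose and none fell by edgeR, beside 7.79% and 9.61% of all genes tested. Kcnh1, which is in each count of higher genes here, met the minimum for reporting through the simvastatin libraries alone. The counts were 3 higher and 0 lower both at an unadjusted p under 0.05 and by DESeq2, and 2 higher and 0 lower by limma-voom. Kcnh2 (chromosome 5, 24319589 to 24351604) encodes the ERG pore of the rapid delayed rectifier, the current blocked by many drugs that lengthen the QT interval. It had 69.3, 59.2, 69.3 and 47.3 RPKM in simvastatin libraries 1 to 4, against 30.9, 37.8, 45.0 and 46.6 RPKM in control libraries 1 to 4. Simvastatin library 4 was barely above control 4, and the log2 fold change was 0.61 ± 0.16 (1.53-fold, adjusted p = 0.0223 by edgeR). The call was lost without control 2, simvastatin 1 or simvastatin 3 (adjusted p 0.0117 to 0.0788 over the 8 libraries left out in turn). It was also lost in set 2 alone (log2 fold change 0.34, adjusted p = 0.128 by edgeR) and with the replicate block (adjusted p = 0.06 by edgeR). In set 1 alone it only just passed (log2 fold change 0.85, adjusted p = 0.0499 by edgeR).

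Kcnh1 (chromosome 1, 192190774 to 192510159) encodes the EAG channel, known mainly from neurons and dividing cells. It showed 52, 28, 54 and 17 counts in simvastatin libraries 1 to 4, against 0, 5, 6 and 4 counts in control libraries 1 to 4. In RPKM these were 0.224, 0.110, 0.238 and 0.0763 with simvastatin, against 0, 0.0202, 0.0234 and 0.0177 in controls, so that the level was low in both groups. The fitted log2 fold change was 3.37 ± 0.63 (adjusted p = 0.00416 by edgeR). This gene met the minimum of 10 counts in 4 libraries through the simvastatin libraries alone.

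Kcnq1 (chromosome 7, 143106362 to 143427042), the pore of the slow delayed rectifier, did not pass. Its values were 25.6, 14.5, 25.8 and 13.7 RPKM in simvastatin libraries 1 to 4, against 5.63, 14.1, 14.5 and 15.1 RPKM in control libraries 1 to 4. Simvastatin 2 and 4 lay among the controls, simvastatin 1 and 3 above them and control 1 far below, with a log2 fold change of 0.69 ± 0.32 (adjusted p = 0.174 by edgeR). The antisense transcript Kcnq1ot1, which overlaps 3.0% of the exonic bases of Kcnq1, had 553, 488, 548 and 529 counts with simvastatin, against 1066, 336, 453 and 397 counts in controls. With no strand setting named for the counting, reads in the shared bases cannot be told apart. The ratio of Kcne1 to Kcnq1 RPKM was 1.002, 1.30, 0.998 and 1.54 with simvastatin, against 6.80, 2.66, 2.65 and 2.36 in controls, without overlap and without a test.

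Kcnq5, the pore of an M-type current in neurons and smooth muscle, had 0.225, 0.655, 0.424 and 0.467 RPKM with simvastatin, against 0.456, 0.481, 0.372 and 0.556 RPKM in controls. The groups overlapped throughout (log2 fold change -0.07 ± 0.29, adjusted p = 0.911 by edgeR). Kcnq3 and Kcnh7 were both below 0.54 RPKM in every library, with adjusted p of 0.0838 and 0.389 by edgeR. Kcnh7 shares 4.6% of its exonic bases with Gca, a gene with more counts than Kcnh7, and reads there cannot be told apart.

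Among inward rectifiers, 2 of 7 reported genes rose and 1 fell by edgeR, beside 7.79% and 9.61% of all genes tested. The class median log2 fold change was 0.20. Kcnj5 (chromosome 9, 32314707 to 32344350) and Kcnj3 encode the subunits of the atrial channel that acetylcholine opens through G proteins. Kcnj5 had 32.6, 44.2, 42.2 and 39.7 RPKM in simvastatin libraries 1 to 4, against 17.2, 24.1, 15.6 and 28.3 RPKM in control libraries 1 to 4. Every simvastatin library was above every control, with a log2 fold change of 0.90 ± 0.19 (1.86-fold, adjusted p = 0.00762 by edgeR). Kcnj3 had 5.002, 5.87, 5.29 and 6.19 RPKM with simvastatin, against 4.77, 4.31, 3.83 and 4.80 RPKM in controls. Its groups did not overlap either, but it did not pass (log2 fold change 0.34 ± 0.12, adjusted p = 0.0855 by edgeR). The Kcnj5 to Kcnj3 ratio of RPKM was 7.11 ± 0.765 with simvastatin and 4.79 ± 1.13 in controls, without a test.

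The background inward rectifier of heart muscle, which sets the resting potential, is formed by the products of Kcnj2 and Kcnj12. Kcnj12 (chromosome 11, 61022564 to 61071131) had 0.916, 0.911, 1.65 and 0.946 RPKM in simvastatin libraries 1 to 4, against 0.507, 0.560, 0.645 and 0.459 RPKM in control libraries 1 to 4. Simvastatin library 3 stood above the other 3, the groups did not overlap, and the log2 fold change was 1.02 ± 0.26 (adjusted p = 0.0201 by edgeR). The call was lost without simvastatin 3 or control 4 (adjusted p 0.0251 to 0.0616 over the 8 libraries left out in turn), and without simvastatin 3 the log2 fold change was 0.76. It was also lost in set 1 alone (adjusted p = 0.143 by edgeR) and in set 2 alone (adjusted p = 0.0727). Kcnj2, several times more abundant, had 3.92, 6.69, 6.11 and 6.31 RPKM with simvastatin, against 6.88, 7.54, 2.94 and 7.47 RPKM in controls. Its groups overlapped and it did not pass (log2 fold change -0.11 ± 0.28, adjusted p = 0.85 by edgeR).

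Kcnj15 (chromosome 16, 95257558 to 95300260), an inward rectifier known from kidney epithelium, was low in all libraries, at 0.0141, 0.0944, 0.0144 and 0.0343 RPKM with simvastatin, against 0.191, 0.159, 0.239 and 0.145 RPKM in controls. The groups did not overlap and the log2 fold change was -2.18 ± 0.53 (adjusted p = 0.0161 by edgeR), from 3 to 22 counts with simvastatin and 30 to 56 counts in controls. Kcnj11, the pore of the ATP-sensitive channel of heart muscle and beta cells, had 5.89, 6.24, 5.86 and 4.58 RPKM with simvastatin, against 4.79, 4.99, 4.58 and 5.33 RPKM in controls and did not pass (adjusted p = 0.352 by edgeR). Kcnj8, the ATP-sensitive pore of vascular smooth muscle and pericytes, missed the minimum with 2, 4, 7 and 4 counts with simvastatin, against 34, 8, 42 and 10 counts in controls. Kcnj6, another G protein-gated subunit, had 0.626 ± 0.118 RPKM with simvastatin and 0.739 ± 0.105 RPKM in controls (adjusted p = 0.494 by edgeR).

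**Figure D4:**
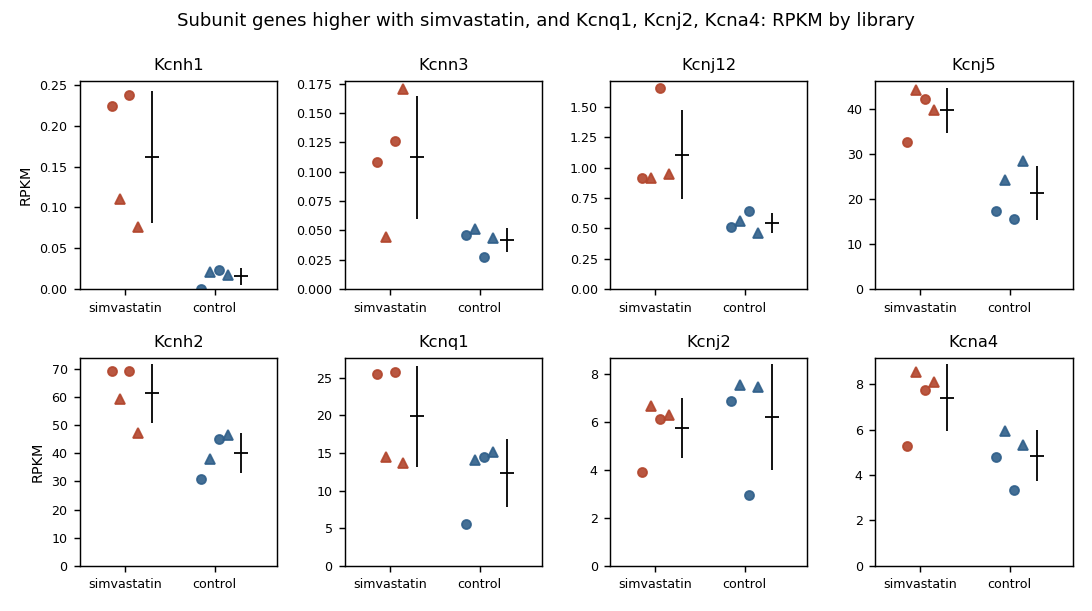
RPKM by library of the 5 subunit genes that rose (Kcnh1, Kcnn3, Kcnj12, Kcnj5, Kcnh2) and of Kcnq1, Kcnj2 and Kcna4, which did not pass, with simvastatin (red) left of control (blue); circles are set 1, triangles set 2, and the dash with its bar is the mean ± SD of 4 libraries. In Kcnq1 the simvastatin circles lie at about 25 RPKM or above and the simvastatin triangles among the controls.

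Kv and silent subunits formed the class with the most reported genes. By edgeR 3 of 10 fell and none rose, beside 9.61% and 7.79% of all genes tested. At an unadjusted p under 0.05 and by DESeq2 there were 3 lower and 2 higher, and by limma-voom 3 lower and 0 higher. Kcna1 (chromosome 6, 126640397 to 126646384), a Shaker-type pore best known from axons, had 0.00659, 0.199, 0.0202 and 0.0138 RPKM in simvastatin libraries 1 to 4, against 0.423, 0.458, 0.581 and 0.481 RPKM in control libraries 1 to 4. Simvastatin library 2 held 33 counts and the other 3 held 1, 3 and 2, all below the controls, and the log2 fold change was -2.96 ± 0.71 (adjusted p = 0.0161 by edgeR). Without simvastatin library 2 the log2 fold change was -5.10.

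Kcna6 (chromosome 6, 126708329 to 126740674), a related pore 61.9 kb from Kcna1, had 0.233, 0.271, 0.412 and 0.205 RPKM with simvastatin, against 0.877, 0.607, 0.476 and 0.588 RPKM in controls. It fell by 1.18 ± 0.28 on the log2 scale without overlap (adjusted p = 0.0143 by edgeR). Kcna5, the third gene of this cluster and the pore of the ultrarapid delayed rectifier, had 2.02, 2.30, 1.76 and 1.60 RPKM with simvastatin, against 1.79, 1.78, 2.09 and 2.24 RPKM in controls and did not pass (adjusted p = 0.921 by edgeR). Neighbouring genes of the cluster thus showed different calls, with Kcna5 lying 105.0 kb from Kcna1.

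Kcnf1 (chromosome 12, 17172100 to 17176888) encodes a silent subunit, which makes no channel alone and alters Kv2 channels. It had 0.533, 0.944, 0.943 and 0.839 RPKM in simvastatin libraries 1 to 4, against 2.13, 2.29, 2.65 and 2.01 RPKM in control libraries 1 to 4. The groups were far apart, with a log2 fold change of -1.48 ± 0.20 (2.79-fold lower, adjusted p = 0.000704 by edgeR). Kcng2, a silent subunit of the same kind, had 4.60, 3.19, 4.75 and 2.57 RPKM with simvastatin, against 2.94, 3.85, 6.19 and 4.81 RPKM in controls and did not pass (adjusted p = 0.613 by edgeR).

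Kcna4, the pore of the slowly recovering transient outward current, had 5.27, 8.54, 7.75 and 8.11 RPKM with simvastatin, against 4.81, 5.96, 3.35 and 5.34 RPKM in controls. Simvastatin library 1 lay within the control range, and the log2 fold change of 0.61 ± 0.20 missed the threshold (adjusted p = 0.06 by edgeR). With the set as a term in the fit it passed (log2 fold change 0.62, adjusted p = 0.0202). Kcnd2, the pore of the fast transient outward current, had 0.489, 0.453, 0.388 and 0.434 RPKM with simvastatin, against 0.409, 0.655, 0.283 and 0.986 RPKM in controls, with wide spread in the control group (log2 fold change -0.40 ± 0.34). Kcnd3, the second such pore, missed the minimum with 1, 0, 1 and 12 counts with simvastatin, against 8, 11, 5 and 4 counts in controls. The Kv pores Kcnd1 and Kcnb2 were below 0.48 RPKM in every library, with adjusted p of 0.0779 and 0.402 by edgeR.

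Of the calcium- and sodium-activated class, 1 of 7 reported genes rose and 1 fell by edgeR, beside 7.79% and 9.61% of all genes tested. Kcnmb1 (chromosome 11, 33963013 to 33973641) encodes the beta subunit that raises the calcium sensitivity of BK channels in smooth muscle. It had 0.248, 0.502, 0.431 and 0.825 RPKM in simvastatin libraries 1 to 4, against 1.96, 2.20, 2.05 and 1.60 RPKM in control libraries 1 to 4. The simvastatin values were all below the controls, with a log2 fold change of -1.96 ± 0.31 (3.89-fold lower, adjusted p = 0.00153 by edgeR). The smooth muscle marker sum given above, mostly 1 gene, was lower in the same libraries, while 1 of the 7 markers was higher past the test. The part of these markers in this result was not tested. The BK pore gene Kcnma1 missed the minimum with 8, 10, 24 and 6 counts with simvastatin, against 4, 2, 2 and 4 counts in controls.

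Small-conductance calcium-activated channels are encoded by Kcnn1, Kcnn2 and Kcnn3. Kcnn3 (chromosome 3, 89520164 to 89675132) had 0.108, 0.0441, 0.127 and 0.170 RPKM in simvastatin libraries 1 to 4, against 0.0463, 0.0510, 0.0274 and 0.0434 RPKM in control libraries 1 to 4. Simvastatin library 2 lay within the control range, and the log2 fold change was 1.41 ± 0.42 (adjusted p = 0.0405 by edgeR). This call was lost when any library except simvastatin 2 was left out (adjusted p 0.00955 to 0.116 over the 8 libraries left out in turn) and with limma-voom. Kcnn1 had 0.804, 0.615, 0.619 and 0.510 RPKM with simvastatin, against 0.397, 0.490, 0.449 and 0.445 RPKM in controls and did not pass although its groups did not overlap (adjusted p = 0.12 by edgeR). Kcnn2 had 0.852, 0.665, 0.797 and 0.567 RPKM with simvastatin, against 0.564, 0.703, 0.751 and 0.928 RPKM in controls, with full overlap (adjusted p = 0.944 by edgeR).

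Kcnn4, the intermediate-conductance channel of blood and other non-excitable cells, spread widely, with 1.11, 0.191, 0.706 and 0.167 RPKM under simvastatin, against 0.0501, 0.0984, 0.330 and 0.133 RPKM in controls. Its log2 fold change of 1.82 ± 0.69 did not pass (adjusted p = 0.103 by edgeR). Kcnmb4, a BK beta subunit known from brain, and Kcnt2, a sodium-activated pore, did not pass either, with adjusted p of 0.0942 and 0.378 by edgeR. With the set as a term Kcnmb4 passed as higher (log2 fold change 1.48, adjusted p = 0.0182).

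Tandem-pore-domain genes were low, and 1 of 6 reported genes fell and none rose by edgeR, beside 9.61% and 7.79% of all genes tested. At an unadjusted p under 0.05 and by DESeq2 there were 2 lower and 1 higher, and by limma-voom 1 lower and 0 higher. Kcnk2 (chromosome 1, 189207930 to 189402273), whose promoter is printed above, had 0.0701, 0.0874, 0.0587 and 0.0533 RPKM in simvastatin libraries 1 to 4, against 0.254, 0.174, 0.463 and 0.236 RPKM in control libraries 1 to 4. The groups did not overlap and the log2 fold change was -2.05 ± 0.37 (4.13-fold lower, adjusted p = 0.00373 by edgeR), from 8 to 15 counts with simvastatin and 29 to 80 counts in controls. Kcnk3, the acid-sensitive channel TASK-1, was the most abundant of the class, with 2.72, 1.64, 2.12 and 1.37 RPKM under simvastatin, against 1.22, 1.26, 2.06 and 1.22 RPKM in controls. It overlapped and did not pass (log2 fold change 0.44 ± 0.26, adjusted p = 0.285 by edgeR).

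Kcnk5, the alkaline-activated channel TASK-2, had 0.534, 0.608, 0.671 and 0.607 RPKM with simvastatin, against 0.720, 0.484, 0.706 and 0.548 RPKM in controls, with the simvastatin values inside the control range (adjusted p = 0.961 by edgeR). Kcnk6, the weak inward rectifier TWIK-2, had 0.584, 0.416, 0.831 and 0.468 RPKM with simvastatin, against 0.336, 0.164, 0.303 and 0.406 RPKM in controls. It did not pass although its groups did not overlap (log2 fold change 0.93 ± 0.32, adjusted p = 0.0764 by edgeR). Kcnk1 and Kcnk13 had adjusted p of 0.0625 and 0.481 by edgeR. With the set as a term Kcnk1 passed as lower (log2 fold change -1.47, adjusted p = 0.0209).

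The count columns name 2 sets, each with 2 libraries of either group: replicates 1 and 3 are set 1 and replicates 2 and 4 set 2, and what a set stands for is not given. Within set 1 alone 13 of the 45 genes passed, beside 9.82% of all genes tested there, and within set 2 alone 14 passed, beside 18.3%. The direction was the same in both sets for 36 of 45 genes, beside 68.0% of all genes tested. It was also the same for all 17 genes called over the 8 libraries. Those calls were made on the libraries of both sets together, so this agreement is not independent of them. With the set as a term in the fit, 13 of the 45 genes fell and 7 rose, beside 11.1% and 9.78% of all genes tested, which added Kcnk1, Kcna4 and Kcnmb4 to the 17. The change was larger in size in set 1 for 13 of these 17, and the same share over all called genes was not computed. Kcne3 had log2 fold changes of -5.68 in set 1 and -3.56 in set 2, Kcnab1 of -3.15 in set 1 and -1.47 in set 2, and Kcne1l of -2.46 in set 1 and -0.72 in set 2. Kcnip2 and Kcne1 differed the other way, at -2.36 and -0.59 in set 1 and -3.03 and -0.87 in set 2. Of the 17 called genes, Kcnab3 and Kcna6 did not pass in set 1 alone. Kcnh2, Kcnk2, Kcne1l, Kcna1 and Kcnj15 did not pass in set 2 alone, and Kcnn3 and Kcnj12 passed in neither set alone.

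A test of the difference between sets (the interaction of treatment with set, edgeR) called 0 of 45 subunit genes at an adjusted p under 0.05 and 10 of 45 at an unadjusted p under 0.05, beside 0.0558% and 11.5% of all genes tested. With DESeq2 size factors or library totals in place of TMM it also called 0. Kcnab1 was nearest to the threshold (unadjusted p = 0.000369, adjusted p = 0.0709). Kcnq1 stood at a log2 fold change of 1.33 in set 1 but -0.05 in set 2 (adjusted p of the difference = 0.25), and Kcnd2 was at 0.33 in set 1 and -0.88 in set 2.

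**Figure D5:**
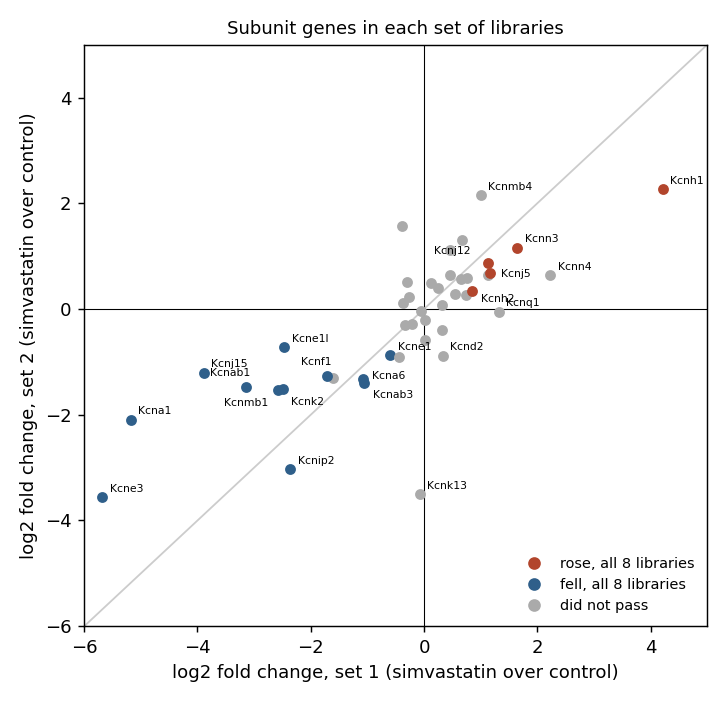
Log2 fold change, simvastatin over control, of the 45 reported subunit genes in set 1 (horizontal axis) and set 2 (vertical axis), each from 2 libraries a group; red and blue mark genes that rose or fell over all 8 libraries, and the grey line marks equal values. All 17 coloured genes lie in the quadrants where both sets share a direction, and the 9 genes in the other quadrants are grey. The coloured genes were called on these same libraries.

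A list of 42 genes that act with these channels, or on the potassium gradient, held 35 tested genes, of which 4 rose and 2 fell by edgeR, shares near the 7.79% and 9.61% of all genes tested. The risen genes Rgs4 and Rgs6 encode regulators that speed the shut-off of the G protein signal to Kcnj3 and Kcnj5 channels. Rgs4 was at 6.50 ± 0.441 RPKM with simvastatin and 4.06 ± 0.539 RPKM in controls (log2 fold change 0.68 ± 0.13, adjusted p = 0.00561 by edgeR), and Rgs6 at 3.65 ± 0.418 RPKM with simvastatin and 2.37 ± 0.299 RPKM in controls (adjusted p = 0.00783). Tmem38a, a potassium channel of the sarcoplasmic reticulum, also rose (log2 fold change 0.26, adjusted p = 0.0329 by edgeR), with no overlap between groups. That call was lost with each of the 8 libraries left out in turn (adjusted p 0.0518 to 0.103), with the replicate block, with no filter and in each set alone.

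Abcc8, the sulfonylurea receptor that joins Kcnj11 in ATP-sensitive channels and lies 3.8 kb from it, had 3.72, 4.26, 4.61 and 3.47 RPKM in simvastatin libraries 1 to 4, against 5.84, 5.29, 5.68 and 6.63 RPKM in control libraries 1 to 4. It fell by 0.55 ± 0.12 on the log2 scale without overlap (adjusted p = 0.0113 by edgeR). Abcc9, the receptor of the muscle form, was at 16.4 ± 4.51 RPKM with simvastatin and 13.9 ± 4.43 RPKM in controls and did not pass (adjusted p = 0.598 by edgeR). Slc12a4, a potassium-chloride carrier, fell (log2 fold change -0.43, adjusted p = 0.0368 by edgeR), with overlapping groups. Its call was lost with any library except control 1 left out (adjusted p 0.00543 to 0.0930 over the 8 fits) and in set 1 alone. Of 8 sodium pump genes none passed by edgeR, 2 were higher at an unadjusted p under 0.05, and DESeq2 and limma-voom called 0. In set 2 alone edgeR called the pump subunits Atp1b1 (log2 fold change -1.25, adjusted p = 0.000572) and Atp1b3 (-0.82, adjusted p = 0.000547) as lower and Fxyd5 (0.78, adjusted p = 0.0141) as higher. That fit called 11.5% of all its genes as lower and 6.79% as higher. In set 1 alone Atp1b3 stood at 0.33, Fxyd5 at 0.605 and Atp1b1 at 0.80, and none of these passed there. The difference between sets for Atp1b1 had an unadjusted p = 0.000472 and an adjusted p = 0.0755 by edgeR.

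The 49 subunit genes below the minimum together made up 0.731 ± 0.175% of the summed RPKM with simvastatin and 1.04 ± 0.289% in controls. Of these, 35 never reached 10 counts in any library, and the highest count of any was 42. Kcna10, Kcnk12 and Kcns1 had no count in any of the 8 libraries, which allows up to 0.0114 CPM over all libraries together (3 counts, counting error only). Just inside the minimum, with exactly 4 libraries at 10 counts, were Kcnh1 and Kcnt2. Kcnt2 had 8, 32, 12 and 20 counts with simvastatin, against 8, 9, 21 and 8 counts in controls. Just outside it, with 3 libraries, were Kcnj8, Kcnip3, Kcnip4 and Kcnk10. Kcnip3 had 3, 12, 2 and 0 counts with simvastatin, against 25, 3, 9 and 30 counts in controls, and Kcnip4 and Kcnk10 had 3 to 17 counts per library.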

How the data were processed

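RNA sequencing libraries of cultured mouse cardiomyocytes, 4 with simvastatin and 4 controls, were grouped by the treatment in the labels. The authors deposited unnormalized gene counts. Reads were handled with STAR 2.5.2b, Trimmomatic 0.36, Subread 1.5.2 and featureCounts, per the submitters' processing notes, which name the builds GRCm38 and mm10. No source used here gives the strand setting or the annotation release, so counts of overlapping genes cannot be told apart. A partner sharing exonic bases existed for 18 of the 45 reported genes, and for 3 of them, Kcnq1 and Kcnh7 included, it held over 10% as many counts as the gene itself.

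Symbols came from the GENCODE annotation of GRCm38, which matched 99.5% of identifiers. Genes were kept by filterByExpr (minimum count 10), which left 16126 of 32927 genes with any count, including all 45 reported. The test was edgeR 4.0.16 (R 4.3.3), quasi-likelihood, two-sided, TMM scaling, treatment as the only term, Benjamini-Hochberg adjustment over all genes tested at 0.05. RPKM used the TMM-scaled totals and the exonic length in the deposited tables, and means carry the SD of 4 libraries. Library pairs of 1 group differed beyond sampling noise (chi-square per degree of freedom 16.4 to 82.2), and none was counted as a copy. DESeq2 1.42.0, limma-voom (limma 3.58.1), other scalings and filters, a replicate block, the sets and each library left out in turn were alternatives.

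Genes given in full were those with an adjusted p under 0.05, the 3 most abundant of each class, and a list of cardiac channel genes. Partner genes named without a call over all 8 libraries were picked once their values were known. The members, the partner and marker lists and these choices were made with earlier results of these data known. A few genes of these lists enter the counts but are not reported here by name.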

Additional observations from a re-analysis of the deposited data

Results flagged for a closer look

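Each named gene's 4 libraries per group were checked for a single library far from the other 3, over 62 groups, of which 5 had one, while chance gives about 1 in 20. Kcna1 in simvastatin library 2 was at 0.199 RPKM, the highest of its group, and the other 3 simvastatin libraries were at 0.0202 RPKM or less. Kcnj12 in simvastatin library 3 was at 1.65 RPKM, above the other simvastatin libraries at 0.946 RPKM or less. In the control group, Kcnq1 was at 5.63 RPKM in library 1, the lowest, and Kcnj2 at 2.94 RPKM in library 3, also the lowest. Kcnk3 was at 2.06 RPKM in control library 3, the highest of that group. Of these genes, Kcna1 and Kcnj12 were called, and their values without that library are given in the results.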

How the results depend on the processing

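The count of subunit genes that fell, 12 as reported, stayed within 8 to 14 under every alternative run. The count that rose, 5 as reported, was 12 with DESeq2's Wald test, 8 with no filter beyond 1 count, 3 with a minimum of 1 CPM in 4 samples and 3 in set 1 alone, fits that called 10.5%, 3.86%, 8.99% and 3.91% of all their genes as higher, against 7.79% as reported. Leaving out 1 library gave 2 to 6 that rose and 11 to 12 that fell. Of the partner genes, 4 rose, with 2 in set 1 alone and 2 to 3 with 1 library left out. Of the 2 in set 1 alone, only 1 was among the 4, and that fit called 3.91% of all genes as higher. Partner genes that fell were 2 as reported and 1 to 2 with 1 library left out. There were 0 in set 1 alone by edgeR (3 at an unadjusted p under 0.05) and 6 in set 2 alone. Those fits called 5.91% and 11.5% of all genes as lower at an adjusted p under 0.05. Why these counts moved was not tested.

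No change of sign occurred for the 17 called genes, though every alternative reused libraries on which they were called. Genes that did not pass changed sign in a set alone: Kcnn2 (0.31), Kcnj2 (0.015), Kcng2 (0.01) and Kcnd2 (0.33) in set 1, and Kcnq1 (-0.049), Kcnq5 (0.12) and Kcnk5 (0.24) in set 2, as log2 fold changes. With 1 library left out, log2 fold changes ran from -0.15 to 0.092 for Kcnn2, -0.33 to 0.15 for Kcnq5, -0.13 to 0.055 for Kcnk5, -0.34 to 0.038 for Kcnj2 and -0.14 to 0.039 for Kcna5. Of 554 gene values under alternatives, 494 kept their direction and side of the threshold, 32 lost it, 10 gained it and 18 changed sign. Every call was kept with each library left out for 13 of the 17 genes, the exceptions being Kcne1l, Kcnn3, Kcnh2 and Kcnj12. Kcna4 passed under 7 alternatives.

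Replicate numbers are shared by the groups, and same-numbered libraries also belong to the same set. Their deviations from the group means correlated at r = -0.143, 0.045, 0.133 and -0.162 for numbers 1 to 4. Differently numbered libraries ran from -0.357 (simvastatin 3 with control 1) to 0.362 (simvastatin 1 with control 3). With means taken over only 4 libraries, these values cannot decide whether same-numbered libraries were paired. With the replicate block 4 subunit genes rose, 11 fell and 2131 genes were called in all, against 2805 without it. Kcnh2, Kcnn3 and Kcne1l lost their calls with the block, and Kcnmb4 passed as higher.

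Depth limits genes with few counts, such as Kcnh1, Kcnj15 and Kcnk2, whose fold changes rest on under 100 counts per library.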
